A study of Mus musculus with 5 samples.

Results

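The genes described here are 10 that build the contacts between endothelial cells, taken by name from the 19736 genes with a column in at least 1 of 5 single-cell RNA libraries of mouse liver. They are the claudin gene Cldn5, the junctional adhesion genes Jam2, Jam3, F11r and Esam, the scaffold gene Tjp1, the cadherin gene Cdh5, and the connexin genes Gja1, Gja4 and Gja5. All libraries held non-parenchymal liver cells of wild-type male mice with surgery at 9 weeks of age, collected 2 weeks after it. In 3 libraries the operation was partial ligation of the inferior vena cava (pIVCL), which narrows the vein above the liver and serves as a model of hepatic congestion, and in 2 it was a sham operation. The strain is not given in the sources used here. Each label names a mouse without saying whether the mice differ, so p-values rest on the spread between libraries, which may be technical.

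Tight junctions seal the gap between neighbouring endothelial cells through claudins and junctional adhesion molecules, which scaffold proteins tie to the actin cytoskeleton. Adherens junctions hold the cells together through the vascular cadherin encoded by Cdh5. Connexins form gap junction channels that pass ions and small molecules, and Gja4 and Gja5 are best known from arterial endothelium. Sinusoidal endothelium of the liver is fenestrated and lacks a continuous basement membrane, unlike the lining of portal vessels and central veins.

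Of 19815 deposited cells, 17188 passed the filters and 16672 were kept, among them 1502, 1622 and 704 endothelial cells in pIVCL 1, 2 and 3, against 2679 and 2357 in sham 1 and 2. The libraries held 12448260 to 30523228 molecules. Endothelial cells had medians of 4114 to 4483 molecules in pIVCL and 4924 to 5148 in sham. Their 11 endothelial marker genes summed to 22326 to 24919 CPM in pIVCL, against 27615 to 28995 CPM in sham (CPM, molecules per 1000000 molecules of the cells summed). Both sham libraries and pIVCL 1 carried the batch label 2021.3, and pIVCL 2 and pIVCL 3 carried 2021.7. Any batch difference is thus partly tied to the operation, and the values of pIVCL 1 against sham are the comparison within 1 batch, in which the lone pIVCL library is assumed to vary as the sham libraries do. Pairs of libraries shared at most 20 cell indices.

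The upstream sequences of 3 members are printed, chosen by the results for these genes. After pIVCL, Gja4 and Cldn5 were called lower in central vein and pericentral cells, and Gja5 lay almost wholly in 1 endothelial subcluster. No result below rests on the sequences. RefSeq's promoter table for build GRCm38.p6 had entries for 6 of the 10 members (Cldn5, F11r, Tjp1, Gja1, Gja4, Gja5). Each sequence covers the 250 bases before the annotated start, 5′ to 3′ on the gene's strand. Capitals mark any match, on either strand, to the ETS core CAGGAA or CCGGAA, the RBPJ core TGGGAA or the SOX core ACAATG.
Gja4, chr4:127314040-127314289, minus strand: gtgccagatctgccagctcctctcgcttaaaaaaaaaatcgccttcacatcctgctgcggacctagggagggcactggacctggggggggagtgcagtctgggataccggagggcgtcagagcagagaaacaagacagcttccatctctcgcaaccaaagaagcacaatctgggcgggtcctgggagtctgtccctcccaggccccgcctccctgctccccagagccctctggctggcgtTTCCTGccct
Cldn5, chr16:18776597-18776846, plus strand: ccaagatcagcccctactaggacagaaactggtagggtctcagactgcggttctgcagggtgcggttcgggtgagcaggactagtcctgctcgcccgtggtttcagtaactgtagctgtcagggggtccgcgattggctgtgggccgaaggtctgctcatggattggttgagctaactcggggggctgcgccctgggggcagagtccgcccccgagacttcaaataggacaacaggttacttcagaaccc
Gja5, chr3:97032152-97032401, plus strand: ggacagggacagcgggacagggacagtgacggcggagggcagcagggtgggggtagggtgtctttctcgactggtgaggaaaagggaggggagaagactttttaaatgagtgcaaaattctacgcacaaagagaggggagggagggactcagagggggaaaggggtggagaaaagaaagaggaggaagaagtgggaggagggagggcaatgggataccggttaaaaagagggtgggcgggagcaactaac
Gja4 had 1 match, to CAGGAA on the opposite strand, and none of these letters occurred in the windows of Cldn5 and Gja5. Of all 32851 promoters in windows of the same length, 25.7% held CAGGAA, 12% CCGGAA, 21.6% TGGGAA and 10.7% ACAATG. GC content was 61.2% for Gja4, 59.6% for Cldn5 and 56.4% for Gja5.

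The members fell into broadly endothelial genes, genes shared with other cells and a gene of 1 vessel type, in the plot of mean levels by group of cells. Of all Gja5 molecules in the kept cells, 94.8% lay in endothelial cells, compared with 90.4% for Jam2, 88.4% for Cldn5, 84.6% for Tjp1, 83.4% for Gja4, 83.3% for Esam and 76.7% for Gja1. The shares were lower for F11r (72.6%), Cdh5 (68.4%) and Jam3 (51.5%). These shares pool the libraries, and the order differed between them: in pIVCL 3, 75.0% of 36 Gja5 molecules lay in endothelial cells, below Jam2 (86.1%) and Cldn5 (83.7%). For Jam3 the share was 41.9, 33.3 and 44.6% in pIVCL 1, 2 and 3, against 71.2 and 68.2% in sham 1 and 2. A further 3.85 to 10.8% of each gene's molecules lay in clusters that carried markers of more than 1 cell class and were left out of the comparisons. In pIVCL 2 that share was 22.8% for Cdh5, 20.2% for F11r and 19.9% for Esam. F11r, an adhesion molecule of epithelia as well as endothelium, averaged 692 CPM in cholangiocytes and 675 CPM in mesothelial cells, against 348 CPM in endothelial cells. Jam3 was sparse in endothelium, with 290 molecules in all, and averaged 34.4 CPM in stellate cells and 25.1 CPM in fibroblasts, against 7.07 CPM in endothelial cells.

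**Figure D1:**
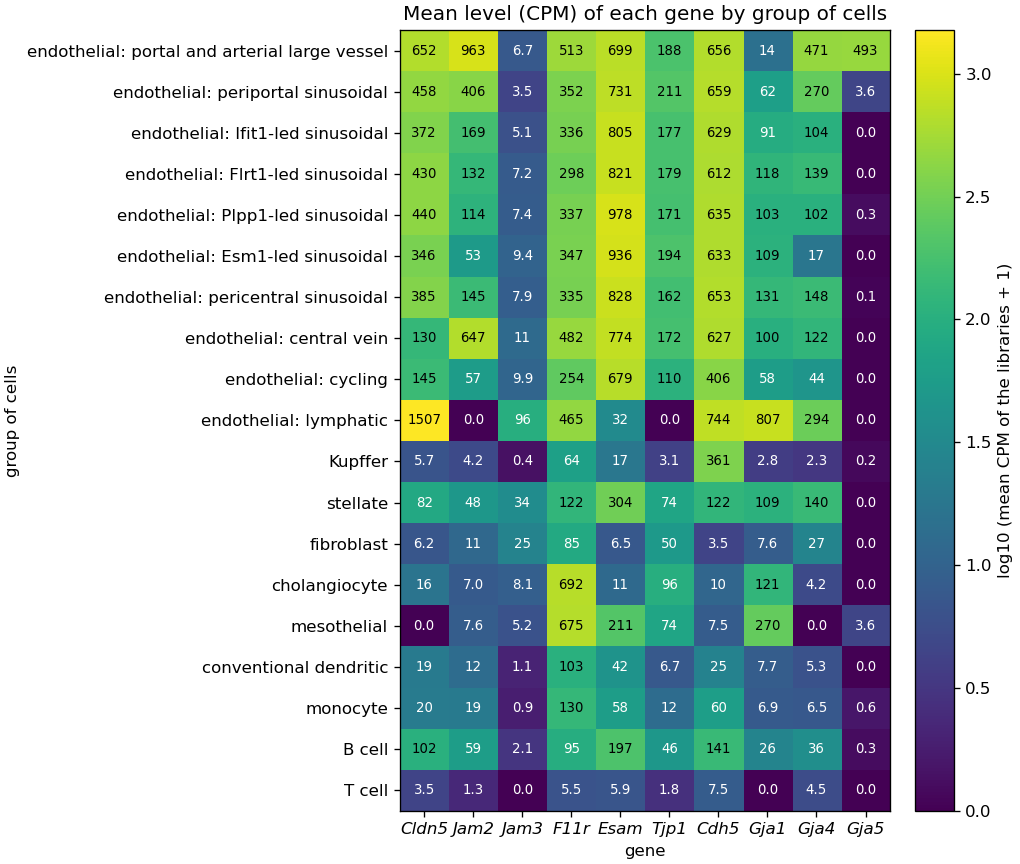
Mean level of each gene (columns) in each group of cells (rows), as the mean CPM of the libraries, printed in each cell and coloured on a log10 scale. Gja5 reached 493 CPM in portal and arterial endothelium and at most 3.62 CPM in the other rows drawn, whereas Cdh5 was at 361 CPM in Kupffer cells.

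Within the endothelium the levels of Cdh5 differed little between subclusters while those of Jam2, Cldn5 and the connexins varied widely. Subclusters were built without the junction genes and named from markers: periportal and pericentral sinusoidal, central vein, portal and arterial large vessel, cycling, lymphatic, and 4 unnamed sinusoidal ones called by a leading gene (Esm1, Flrt1, Ifit1, Plpp1). Mean Cdh5 levels lay between 612 and 659 CPM in all but the cycling and lymphatic subclusters. Jam2 averaged 963 CPM in portal and arterial cells, 647 CPM in central vein cells and 406 CPM in periportal cells, and 52.6 to 169 CPM in the other sinusoidal subclusters. Cldn5 ran the other way at the central vein, with 130 CPM there against 346 to 458 CPM in sinusoidal subclusters and 652 CPM in portal and arterial cells. These levels are a description of clusters and carry no test. The 10 lymphatic cells held Cldn5 and Gja1 at 1507 and 807 CPM and no molecule of Jam2 or Tjp1, which is too few cells for a comparison.

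Gja5 marked the portal and arterial subcluster, the large vessels that bring blood into the liver. Its level there was 323, 896 and 327 CPM in pIVCL 1, 2 and 3, against 494 and 425 CPM in sham 1 and 2. In periportal cells it was 2.40, 2.58 and 11.6 CPM in pIVCL 1, 2 and 3, against 0.345 and 1.20 CPM in sham 1 and 2, and no molecule was found in any library's central vein cells. The periportal values are only 3, 3 and 5 molecules in pIVCL 1, 2 and 3, against 1 and 3 in sham 1 and 2. Of the portal and arterial cells, 20 of 39, 22 of 32 and 7 of 16 carried a Gja5 molecule in pIVCL 1, 2 and 3, against 95 of 163 and 90 of 142 in sham 1 and 2. Gja4 was present in 21, 23 and 9 of the same pIVCL cells and in 115 and 97 of the same sham cells, and 10, 19 and 4 pIVCL cells and 69 and 64 sham cells carried both connexins. Gja1 was rarer there, with 3, 0 and 0 positive cells in pIVCL, against 11 and 11 in sham. The counts of cells with both Gja4 and Gja5 were not set against those that the single shares would give. Gja5 overlaps genes annotated on the other strand, and the counting is not stated to use strand, so reads of overlapping genes cannot be told apart. The same holds for Jam3 and Cdh5, while Jam2 and Tjp1 overlap genes on their own strand (Gm25908 for Jam2, Gm44794 and Gm44792 for Tjp1), which strand could not separate.

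Over 22 groups of cells and 10508 genes, the genes most like each member in log2(CPM + 1) were found by Pearson's r, given here as a description over groups that share the same libraries. Cldn5 was most like Mmrn2 (r = 0.98), Sox18 (0.98) and Tie1 (0.98). Esam was closest to Tmem88 (0.98), Aqp1 (0.97) and Kdr (0.97), Cdh5 to Scarf1 (0.98), Mrc1 (0.96) and Stab1 (0.96), and Jam2 to Pgm5 (0.93), Nos3 (0.93) and Tek (0.93). Gja4 was closest to Prex2 (0.90), Gm13889 (0.89) and Tmem44 (0.89), Gja1 to Flrt1 (0.90), Sorbs3 (0.87) and Ctdspl (0.87), and Gja5 to Cyp1a1 (0.91), Nkx2-3 (0.88) and Sema3g (0.88). Tjp1 was nearest to Vangl1 (0.97), Bcar1 (0.96) and Sorbs3 (0.95), F11r to Ier3 (0.92), Fnbp1l (0.89) and Afdn (0.88), and Jam3 to P3h3 (0.93), Lamc1 (0.93) and Pde5a (0.93). Among the members themselves, Cldn5 and Cdh5 (r = 0.89) and Cldn5 and Jam2 (0.87) were the closest pairs, and Gja5 reached at most 0.38 with any other.

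After pIVCL, Cldn5 and Gja5 fell over all endothelial cells and no member rose. The other 8 members did not pass. By edgeR quasi-likelihood tests adjusted over 11327 genes, 2 of 10 members were called, against 5.1% of all genes tested (578), 2.59% being lower in pIVCL, and the median log2 fold change of the members was -0.47, beside 0.00 for all genes. An unadjusted p under 0.05 was reached by 4 members, and 4 passed by DESeq2, where Jam2 (adjusted p = 0.000721) and Gja1 (0.0345) joined Cldn5 and Gja5. The share of all genes with an unadjusted p under 0.05 is not given here, so that count has no background beside it. DESeq2 also called more genes in all than edgeR, as given in the closing section. The libraries of both groups did not overlap for 6 members, 5 lower and 1 higher in pIVCL, against 42.9% of all genes. In these sums over all endothelial cells, fewer cells of a subtype and less RNA per cell cannot be told apart. Shares of the subclusters and levels within them are given below.

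**Figure D2:**
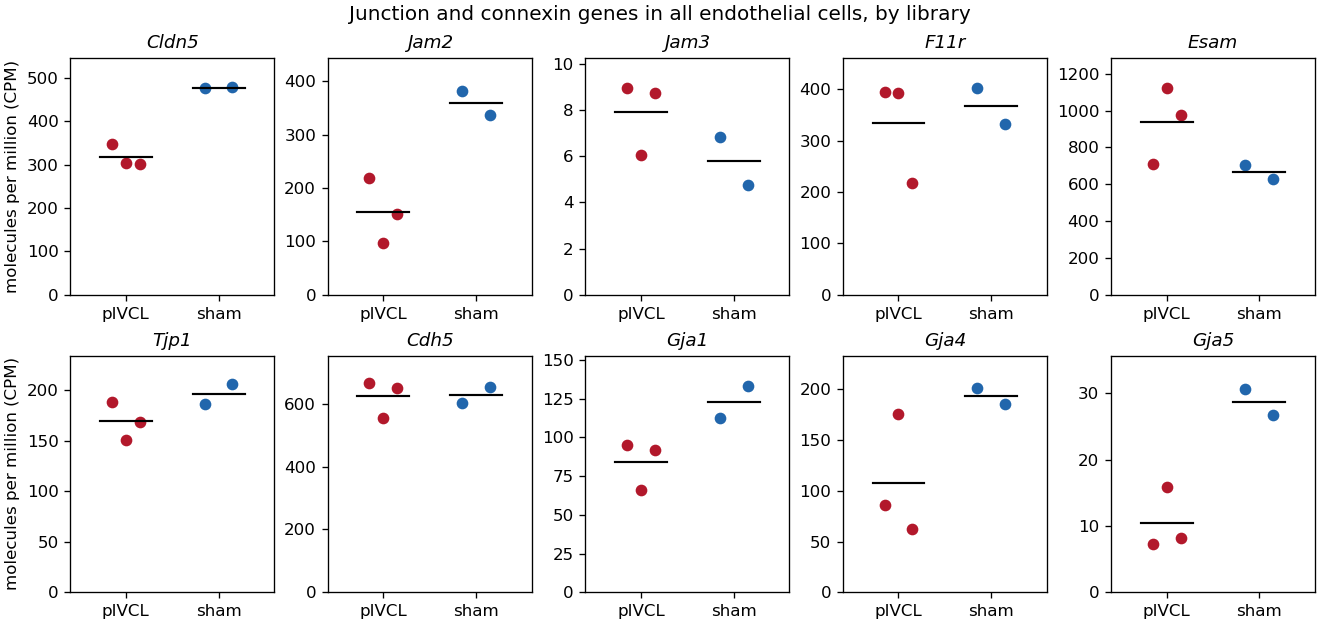
Level of each gene in CPM (vertical axis, from 0) over all endothelial cells of each library (points), with the group mean as a line. Cldn5 lay at 301 to 348 CPM in the 3 pIVCL libraries and at 476 and 479 CPM in the 2 sham libraries, and Gja5 at 7.36 to 16.0 CPM in pIVCL and 30.7 and 26.8 CPM in sham.

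Cldn5, the main claudin of endothelial tight junctions, was at 348, 305 and 301 CPM in pIVCL 1, 2 and 3, against 476 and 479 CPM in sham 1 and 2. Every pIVCL library lay below both sham libraries (log2 fold change -0.67 ± 0.14 SE, adjusted p = 0.0327). Within batch 2021.3 the log2 fold change was -0.50 (adjusted p = 0.0227 in edgeR), and with batch as a term the adjusted p was 0.106. The call was lost without pIVCL 2 (adjusted p = 0.104), pIVCL 3 (0.0962), sham 1 (0.265) or sham 2 (0.265), with log2 fold changes between -0.69 and -0.59. With subclusters weighted to the mean sham shares, an alternative added after the data were seen, the log2 ratio of mean Cldn5 levels was -0.32, compared with -0.59 unweighted.

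Jam2 and Gja1 came close to the threshold. Jam2, a junctional adhesion molecule of endothelium, was at 218, 96.6 and 152 CPM in pIVCL 1, 2 and 3, against 382 and 338 CPM in sham 1 and 2. All pIVCL libraries were below sham, and they differed widely among themselves (log2 fold change -1.29 ± 0.31 SE, adjusted p = 0.0657, 95% interval -1.90 to -0.69). Gja1, the most widely expressed connexin gene, was at 95.2, 66.3 and 91.7 CPM in pIVCL 1, 2 and 3, against 113 and 133 CPM in sham 1 and 2, again without overlap (log2 fold change -0.63 ± 0.17 SE, adjusted p = 0.0771, interval -0.97 to -0.29). In the sum of all sinusoidal subclusters, added after the data were seen, 6.18% of genes were called (2.97% lower) and 3 members fell: Cldn5 (log2 fold change -0.57 ± 0.13 SE, adjusted p = 0.0382), Jam2 (log2 fold change -1.48 ± 0.29 SE, adjusted p = 0.0319) and Gja1 (log2 fold change -0.72 ± 0.17 SE, adjusted p = 0.0409). Within batch 2021.3 those changes were -0.45, -0.96 and -0.53. Each of the 3 calls was lost without pIVCL 2, pIVCL 3, sham 1 or sham 2, with adjusted p values of 0.101, 0.105, 0.289 and 0.266 for Cldn5, 0.0549, 0.0739, 0.242 and 0.151 for Jam2, and 0.0853, 0.104, 0.159 and 0.285 for Gja1.

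The remaining members did not pass over all endothelial cells. Esam, an adhesion molecule of endothelial cells and platelets, was at 712, 1123 and 976 CPM in pIVCL 1, 2 and 3, against 705 and 629.7 CPM in sham 1 and 2. The 2 libraries of batch 2021.7 were high and pIVCL 1 was close to sham (log2 fold change 0.40 ± 0.19 SE, adjusted p = 0.249), and within batch 2021.3 the log2 fold change was 0.05. F11r was at 395, 393 and 217 CPM in pIVCL 1, 2 and 3, against 402 and 332 CPM in sham 1 and 2, with pIVCL 3 alone low (log2 fold change -0.20 ± 0.28 SE, adjusted p = 0.713). Tjp1, the scaffold that links junction proteins to actin, was at 188, 150.5 and 168 CPM in pIVCL 1, 2 and 3, against 186 and 206 CPM in sham 1 and 2, and its groups overlapped (log2 fold change -0.30 ± 0.14 SE, adjusted p = 0.241). Cdh5 was at 667, 554 and 650.4 CPM in pIVCL 1, 2 and 3, against 602 and 653 CPM in sham 1 and 2, with mixed order (log2 fold change -0.10 ± 0.14 SE, adjusted p = 0.72, interval -0.37 to 0.18). Jam3 was at 8.94, 6.04 and 8.75 CPM in pIVCL 1, 2 and 3, against 6.85 and 4.75 CPM in sham 1 and 2, and its groups overlapped.

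Gja5 over all endothelial cells was at 7.36, 16.0 and 8.14 CPM in pIVCL 1, 2 and 3, against 30.7 and 26.8 CPM in sham 1 and 2. Each pIVCL library was below sham (log2 fold change -1.50 ± 0.31 SE, adjusted p = 0.0365), and within batch 2021.3 the log2 fold change was -2.01. The call was lost without pIVCL 3 (adjusted p = 0.101), sham 1 (0.263) or sham 2 (0.17). Portal and arterial cells made up 2.60, 1.97 and 2.27% of endothelial cells in pIVCL 1, 2 and 3, against 6.08 and 6.02% in sham 1 and 2 (two-sided exact permutation p = 0.1, the smallest that 3 against 2 libraries allow). Inside that subcluster, fitted with a minimum of 10 cells chosen after the data were seen, Gja5 did not pass (log2 fold change 0.17 ± 0.37 SE, adjusted p = 0.878, interval -0.54 to 0.89). There pIVCL 2 was above both sham libraries and pIVCL 1 and pIVCL 3 below them, and within batch 2021.3 the log2 fold change was -0.53. When each library's subclusters were weighted to the mean sham shares, the log2 ratio of mean Gja5 levels, pIVCL over sham, was 0.20, compared with -1.46 unweighted. The weighted levels were 20.5, 56.2 and 22.7 CPM in pIVCL 1, 2 and 3, against 30.8 and 26.8 CPM in sham 1 and 2, with pIVCL 2 alone above sham, and without pIVCL 2 the weighted ratio was -0.41. The shares count subclusters whose defining genes may themselves differ between the groups.

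**Figure D3:**
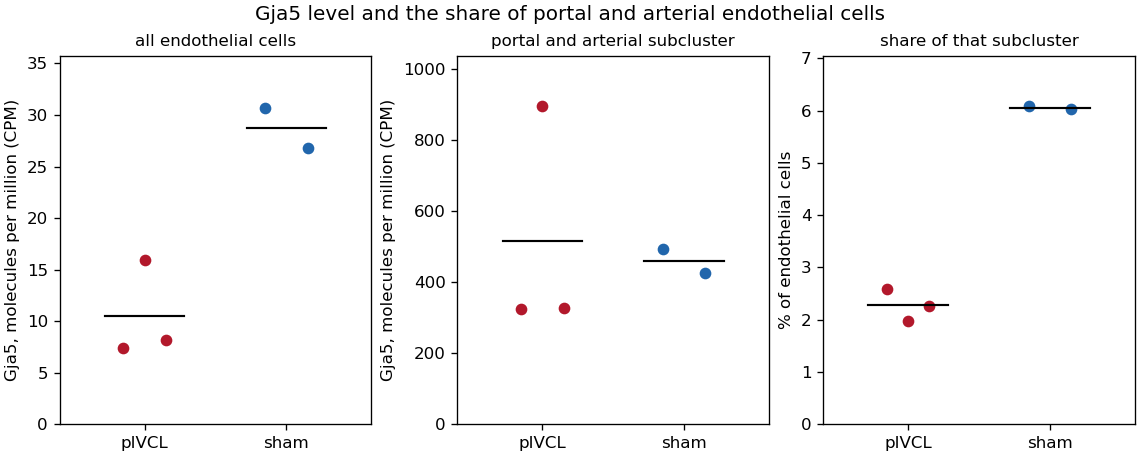
Gja5 level in CPM over all endothelial cells (left) and within the portal and arterial subcluster (middle), and the share of that subcluster among endothelial cells in percent (right), by library (points) with group means (lines). The left and right panels show every pIVCL point below both sham points, with shares of 1.97 to 2.60% in pIVCL and 6.02 and 6.08% in sham, while the middle panel overlaps.

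Gja4, the connexin gene expressed along with Gja5 in arteries, fell on the central side of the lobule and did not pass on the portal side. Gja4 was also called lower in the Esm1-led and Plpp1-led subclusters, which were not named for a zone and are given below. Over all endothelial cells it was at 86.1, 176 and 62.1 CPM in pIVCL 1, 2 and 3, against 201 and 186 CPM in sham 1 and 2, and it did not pass there (log2 fold change -0.90 ± 0.44 SE, adjusted p = 0.28). Weighted to the mean sham shares, the log2 ratio of mean levels was -0.32, compared with -0.84 unweighted, and it was -0.87 without pIVCL 2 and -0.074 without pIVCL 3. The change differed by zone in the plot of fold changes by subcluster. In central vein cells, where 2.43% of genes were called (1.42% lower) and the libraries held 91, 122 and 82 cells in pIVCL and 55 and 48 in sham, Gja4 was at 25.7, 64.7 and 32.7 CPM in pIVCL 1, 2 and 3, against 276 and 213 CPM in sham 1 and 2. All pIVCL libraries were far below sham (log2 fold change -2.58 ± 0.33 SE, adjusted p = 0.000307), and it passed without each library in turn. Within batch 2021.3 the log2 fold change was -3.24. Central vein cells made up 6.06, 7.52 and 11.6% of endothelial cells in pIVCL 1, 2 and 3, against 2.05 and 2.04% in sham 1 and 2 (two-sided exact permutation p = 0.1), and the part of this share in the changes read inside the subcluster was not tested. In pericentral sinusoidal cells, where 4.37% of genes were called (2.15% lower), it was at 74.3, 125 and 37.1 CPM in pIVCL 1, 2 and 3, against 247 and 255 CPM in sham 1 and 2, without overlap (log2 fold change -1.63 ± 0.30 SE, adjusted p = 0.0135). Within batch 2021.3 that change was -1.78, and with batch as a term the adjusted p was 0.199.

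On the portal side Gja4 took the other direction without passing. In periportal sinusoidal cells it was at 202, 475 and 299 CPM in pIVCL 1, 2 and 3, against 193 and 180.2 CPM in sham 1 and 2. All 3 pIVCL libraries were above sham, by little in pIVCL 1 (log2 fold change 0.75 ± 0.31 SE, adjusted p = 0.311, interval 0.14 to 1.36), and within batch 2021.3 the log2 fold change was 0.07. In portal and arterial cells it was at 370.1, 971 and 297 CPM in pIVCL 1, 2 and 3, against 387 and 329.9 CPM in sham 1 and 2, with pIVCL 2 alone high (log2 fold change 0.63 ± 0.40 SE, adjusted p = 0.618), and without pIVCL 2 the log2 fold change was -0.10. The pericentral change minus the periportal change was -2.35 ± 0.17 SE, adjusted p = 2.15e-15 in a model with library as a block, a contrast added after the data were seen in which 1.82% of genes were called (0.93% lower). It was -1.86 within batch 2021.3 and between -2.57 and -2.18 when any library was left out. The SE and p of this contrast rest on a spread moderated over all genes tested. They do not measure the spread of Gja4 between these libraries alone.

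**Figure D4:**
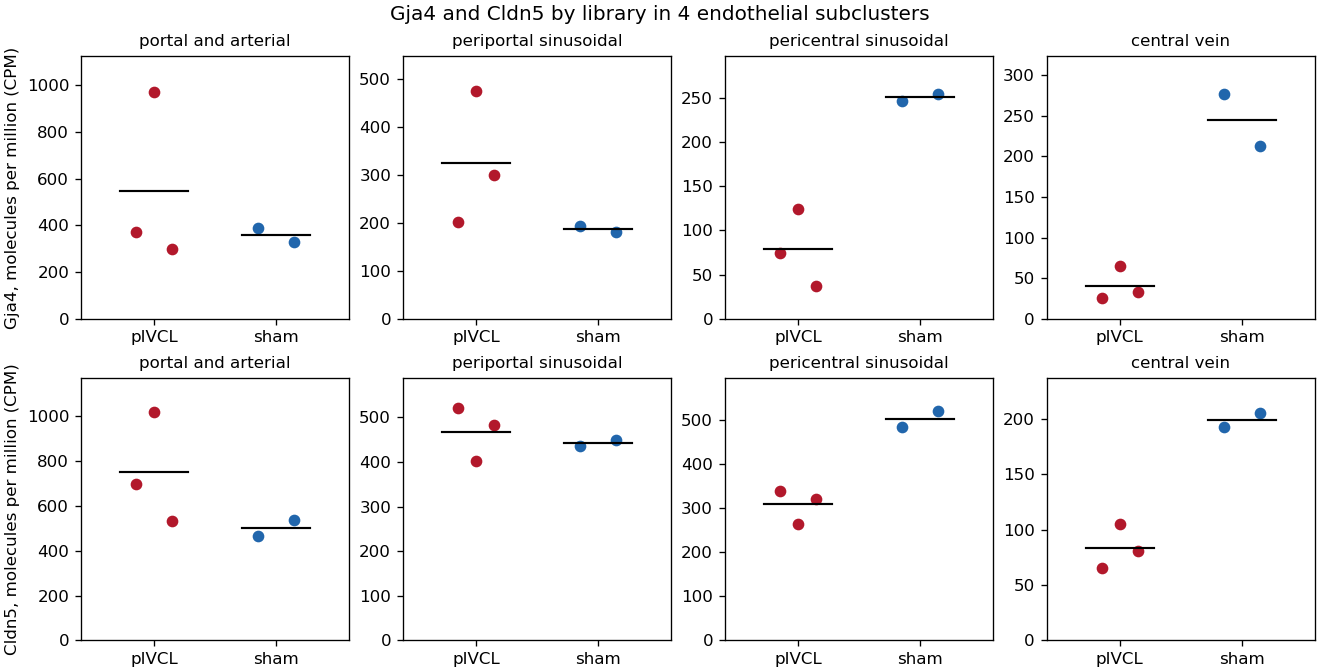
Level in CPM (vertical axes, each from 0) of Gja4 (upper row) and Cldn5 (lower row) by library (points), with group means (lines), in portal and arterial, periportal sinusoidal, pericentral sinusoidal and central vein cells. In pericentral and central vein cells every pIVCL point lies below both sham points for both genes, and in none of the portal and periportal panels are all pIVCL points below sham.

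Cldn5 also fell on the central side of the lobule, with smaller changes. Like Gja4, it was also called lower in the Esm1-led and Plpp1-led subclusters given below. In central vein cells it was at 65.0, 105 and 80.7 CPM in pIVCL 1, 2 and 3, against 192 and 205 CPM in sham 1 and 2, without overlap (log2 fold change -1.28 ± 0.27 SE, adjusted p = 0.0168). In pericentral sinusoidal cells it was at 339, 264 and 321 CPM in pIVCL 1, 2 and 3, against 484 and 519 CPM in sham 1 and 2, also without overlap (log2 fold change -0.77 ± 0.16 SE, adjusted p = 0.0197). Within batch 2021.3 the changes were -1.61 at the central vein and -0.59 in pericentral cells. The periportal level was 521, 402 and 482 CPM in pIVCL 1, 2 and 3, against 437 and 449.7 CPM in sham 1 and 2, with pIVCL 2 below sham and pIVCL 1 and 3 above (log2 fold change 0.02 ± 0.16 SE, adjusted p = 0.98, interval -0.30 to 0.33). The pericentral minus periportal difference in Cldn5 change was -0.80 ± 0.12 SE, adjusted p = 7.11e-06, and -0.79 within batch 2021.3. The central vein call for Cldn5 was lost without pIVCL 3 (adjusted p = 0.0919), sham 1 (0.0774) or sham 2 (0.0879), and at a coarser resolution of 0.5 the log2 fold change there was 0.28. The pericentral call for Cldn5 was lost without pIVCL 2 (0.0842), pIVCL 3 (0.0539), sham 1 (0.185) or sham 2 (0.268), and that for Gja4 without pIVCL 1 (0.0861), sham 1 (0.133) or sham 2 (0.139).

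Large-vessel endothelium was also set against the sum of all sinusoidal subclusters. In central vein cells minus sinusoidal cells, where 1.45% of genes were called (0.975% lower), Gja4 alone passed among the members (difference of log2 fold changes -1.83 ± 0.26 SE, adjusted p = 1.11e-07), and it passed without each library in turn. In portal and arterial minus sinusoidal cells, where 1.36% were called (0.301% higher), 3 members passed, each with a change that was higher in the large vessels: Gja4 (difference of log2 fold changes 1.24 ± 0.20 SE, adjusted p = 4.5e-07), Cldn5 (difference of log2 fold changes 1.03 ± 0.19 SE, adjusted p = 1.22e-05) and Jam2 (difference of log2 fold changes 0.67 ± 0.19 SE, adjusted p = 0.0256). Within batch 2021.3 those differences were 1.10, 0.85 and 0.91. Without sham 1 none of the 3 passed (adjusted p = 0.112, 0.646 and 1), nor without sham 2 (0.154, 0.0935 and 0.827). Cldn5 also failed without pIVCL 2 (0.0703) and Jam2 without pIVCL 1 (0.244). The fit within portal and arterial cells called 0.117% of 3426 genes, rests on 16 cells in pIVCL 3, and called no member by edgeR (1 at an unadjusted p under 0.05, 0 by DESeq2). For the unadjusted and DESeq2 counts no share of all genes is given.

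Cutting the sinusoidal cells of each library into 3 equal zones by a per-cell score of pericentral minus periportal markers, added after the data were seen, gave a second comparison by zone; values in brackets are log2 fold changes or their differences. The cells cut were those of the sinusoidal subclusters. In the central zone, where 9.42% of genes were called (4.45% lower), Gja4 was at 45.8, 55.6 and 20.4 CPM in pIVCL 1, 2 and 3, against 235 and 214 CPM in sham 1 and 2 (-2.43 ± 0.28 SE, adjusted p = 0.000931). Cldn5 (-0.81 ± 0.15 SE, adjusted p = 0.00435), Jam2 (-2.07 ± 0.28 SE, adjusted p = 0.00215) and Gja1 (-0.69 ± 0.16 SE, adjusted p = 0.0188) fell there too. In the portal zone, where 2.71% were called (1.43% lower), Gja4 was at 127, 337 and 145 CPM in pIVCL 1, 2 and 3, against 167 and 163 CPM in sham 1 and 2, with pIVCL 2 alone high (0.27 ± 0.48 SE, adjusted p = 0.837), and Jam2 was the member that fell (-1.15 ± 0.24 SE, adjusted p = 0.0349). The central minus portal difference, with 4.27% of genes called (2.13% lower), passed for Gja4 (-2.69 ± 0.23 SE, adjusted p = 1.59e-05), Jam2 (-0.89 ± 0.14 SE, adjusted p = 4.96e-06) and Cldn5 (-0.54 ± 0.10 SE, adjusted p = 5.03e-05). Dll4, a gene of the score, itself rose in pIVCL. Cdh13, a pericentral marker, was called higher in the Esm1-led subcluster and lower in central vein cells, which were not cut into zones. The score (pericentral minus periportal marker molecules per 10000 molecules of a cell) at which the central zone began was -28.8, -33.9 and -25.6 in pIVCL 1, 2 and 3, against -21.3 and -27.1 in sham 1 and 2, and that at which the portal zone ended was -68.2, -84.3 and -66.7 in pIVCL, against -54.8 and -57.5 in sham. The Esm1-led subcluster made up 18.2, 21.0 and 24.4% of endothelial cells in pIVCL, against 5.75 and 6.36% in sham, and the pericentral one 9.80 ± 0.498% in pIVCL (SD, n = 3), against 18.3 ± 2.42% in sham (SD, n = 2). The zones may thus hold different cells in the 2 groups, and the part of this in the changes was not tested.

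**Figure D5:**
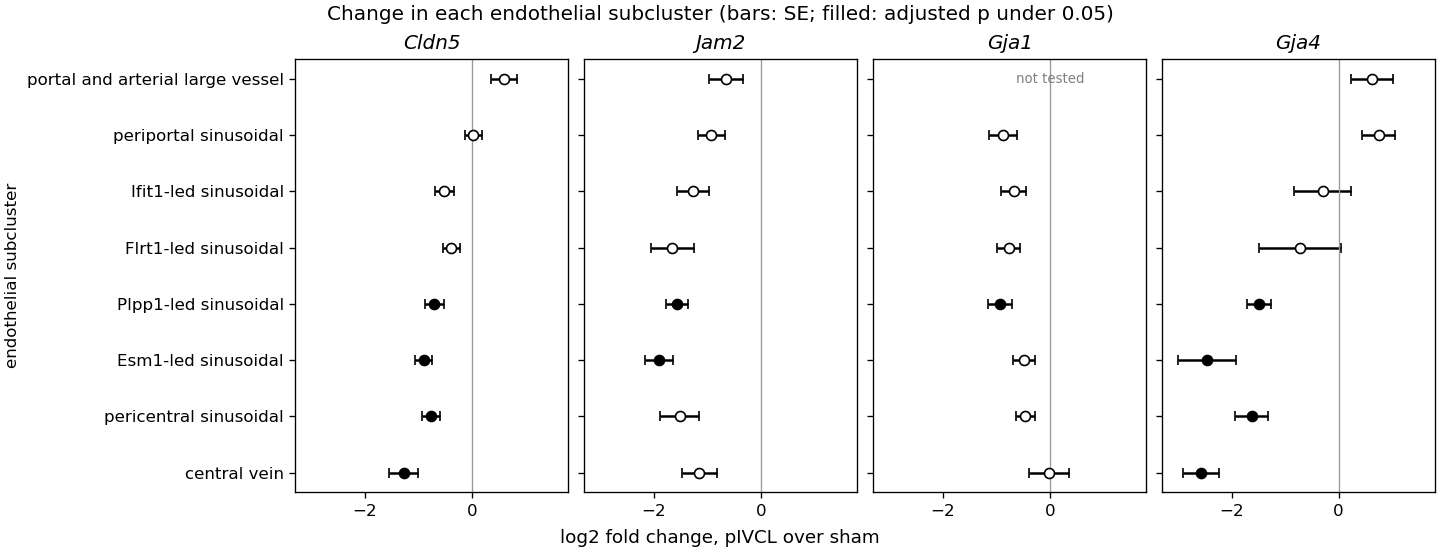
Log2 fold change, pIVCL over sham (horizontal axis), of Cldn5, Jam2, Gja1 and Gja4 in 8 endothelial subclusters (rows), with SE bars and filled points where the adjusted p was under 0.05. Gja4 stands at -2.58 in central vein cells and 0.75 in periportal cells, and Jam2 lies below 0 in every row.

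Among subclusters Jam2 was called in 2, both unnamed sinusoidal ones. In the Esm1-led subcluster, whose leading genes include the angiogenic genes Esm1 and Angpt2, 5.03% of genes were called (2.57% lower) and Jam2 was at 22.3, 27.3 and 27.3 CPM in pIVCL 1, 2 and 3, against 78.2 and 108 CPM in sham 1 and 2. All pIVCL libraries were below sham (log2 fold change -1.90 ± 0.25 SE, adjusted p = 3.52e-05). Gja4 there was at 3.08, 12 and 1.19 CPM in pIVCL 1, 2 and 3, against 38.5 and 27.9 CPM in sham 1 and 2, all pIVCL libraries being below sham (log2 fold change -2.46 ± 0.53 SE, adjusted p = 0.0104), and this call was lost without sham 1 (adjusted p = 0.179) or sham 2 (0.0565). Within batch 2021.3 the changes in Jam2 and Gja4 were -2.06 and -3.38. The Gja4 levels here rest on 4, 18 and 1 molecules in pIVCL 1, 2 and 3, against 30 and 22 in sham 1 and 2. Cldn5 fell as well (log2 fold change -0.90 ± 0.16 SE, adjusted p = 0.0011), a call lost without sham 1 (0.0532).

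In the Plpp1-led subcluster, with 5.29% of genes called (2.42% lower), 4 members fell. Jam2 was at 75.9, 51.2 and 64.2 CPM in pIVCL 1, 2 and 3, against 203 and 174 CPM in sham 1 and 2 (log2 fold change -1.57 ± 0.21 SE, adjusted p = 0.000129). Gja4 was at 65.2, 69.3 and 37.2 CPM in pIVCL 1, 2 and 3, against 181 and 156 CPM in sham 1 and 2 (log2 fold change -1.48 ± 0.23 SE, adjusted p = 0.000499). Neither gene's groups overlapped, and both passed without each library in turn. Their changes within batch 2021.3 were -1.34 and -1.40. Gja1 (log2 fold change -0.92 ± 0.23 SE, adjusted p = 0.0196) and Cldn5 (log2 fold change -0.71 ± 0.18 SE, adjusted p = 0.0213) fell too, and within batch 2021.3 Gja1 did not pass (log2 fold change -0.63, adjusted p = 0.0852). For Gja1 the call was lost without pIVCL 2 (0.106), pIVCL 3 (0.0542) or sham 2 (0.13), and for Cldn5 without pIVCL 3 (0.0775), sham 1 (0.123) or sham 2 (0.254). No member passed by edgeR in the Flrt1-led, Ifit1-led, periportal or cycling subclusters, where edgeR called 2.16, 1.94, 1.69 and 1.36% of all genes. An unadjusted p under 0.05 was reached there by 4, 4, 3 and 2 members, and 0, 1, 1 and 0 passed by DESeq2. The shares of all genes at those 2 thresholds are not given here.

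Shares of positive cells were compared after each endothelial cell was thinned to 1500 molecules. Gja4 was detected in 10.7% of thinned cells in pIVCL and 22.2% in sham (19.3% and 46.6% before thinning), as means of the libraries. Jam2 was found in 16.1% and 34.1% of thinned cells in pIVCL and sham, Gja1 in 10.2% and 14.9%, Gja5 in 0.789% and 2.31%, and Cdh5 in 58.1% and 60.5%. In thinned T cells, which lack these junctions, Cdh5 was in 1.82% of cells in pIVCL and 0.265% in sham, with median depths of 2386 to 3233 molecules.

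Of 33 further tight junction genes, 14 were tested in all endothelial cells: 1 rose, 1 fell and 12 did not pass, with a median log2 fold change of 0.01. For comparison, 5.1% of all genes tested were called in these cells. Clmp, an adhesion protein of the junctional adhesion family, was at 17.2, 13.5 and 36.8 CPM in pIVCL 1, 2 and 3, against 0.761 and 0.820 CPM in sham 1 and 2 (log2 fold change 4.66 ± 0.51 SE, adjusted p = 0.00551). Pard3b, a polarity protein, was at 40.4, 35.2 and 27.5 CPM in pIVCL 1, 2 and 3, against 59.0 and 60.9 CPM in sham 1 and 2 (log2 fold change -0.87 ± 0.19 SE, adjusted p = 0.0366). Neither gene's groups overlapped. Clmp also rose in the Esm1-led subcluster (log2 fold change 2.39 ± 0.42 SE, adjusted p = 0.00111) and passed in pericentral cells, where it was at 15.1, 14.3 and 26.5 CPM in pIVCL 1, 2 and 3, against 0.319 and 0 CPM in sham 1 and 2. Pard3b fell by 1.51 on the log2 scale in pericentral cells (adjusted p = 0.00473).

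Of 34 further adherens junction genes, 28 were tested and none passed by edgeR (7 at an unadjusted p under 0.05, 2 by DESeq2), with a median of -0.09. Of 20 further connexin and pannexin genes, 4 were tested and none passed (0 unadjusted, 0 by DESeq2). In these cells edgeR called 5.1% of all genes tested, and the shares at the other thresholds are not given here. Within subclusters, calls were scattered. In central vein cells Cgnl1, a cingulin-like junction protein, was at 53.1, 48.1 and 58.9 CPM in pIVCL 1, 2 and 3, against 192 and 126 CPM in sham 1 and 2 (log2 fold change -1.63 ± 0.29 SE, adjusted p = 0.00421), and Cdh13 and Heg1, an adhesion gene and a partner of junctional signalling, fell by 1.06 and 1.08. In the Esm1-led subcluster Cdh13 and Jup, the plakoglobin gene, rose by 1.8 and 1.03 on the same scale, and Nectin2 rose by 1.04 in pericentral cells. Rap1b fell by 0.68 in periportal cells and Rap1a by 0.68 in Plpp1-led cells.

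Genes that act on arterial identity were read beside the connexins. Of 21 arterial and Notch genes, 19 were tested, 2 rose and none fell by edgeR over all endothelial cells. Of all genes tested there, 5.1% were called. Dll4, the Notch ligand of arterial and periportal endothelium, was at 444, 545 and 520.1 CPM in pIVCL 1, 2 and 3, against 246 and 248 CPM in sham 1 and 2, with every pIVCL library above sham (log2 fold change 0.94 ± 0.14 SE, adjusted p = 0.00999). Igfbp3 was at 12.4, 5.46 and 14.2 CPM in pIVCL 1, 2 and 3, against 2.84 and 2.54 CPM in sham 1 and 2 (log2 fold change 1.86 ± 0.41 SE, adjusted p = 0.0404). It was also a leading gene of the stellate cluster, which held 277, 327 and 111 cells in pIVCL, against 80 and 36 in sham. The part of stellate RNA in its endothelial level was not tested. Of 19 endothelial transcription factors, 18 were tested and 2 fell, Ets1 (log2 fold change -0.65 ± 0.14 SE, adjusted p = 0.0365) and Elk3 (log2 fold change -0.52 ± 0.12 SE, adjusted p = 0.0493), both of the ETS family. Among all genes tested, 2.59% were called lower in pIVCL.

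Outside the endothelium Cdh5 was found in Kupffer cells, the resident macrophages of the sinusoid. It was at 361, 258 and 316 CPM in pIVCL 1, 2 and 3, against 438 and 433 CPM in sham 1 and 2. All pIVCL libraries were below sham, and the gene did not pass (log2 fold change -0.51 ± 0.15 SE, adjusted p = 0.213, interval -0.81 to -0.21). In the same cells Cldn5 was at 1.32 to 12.6 CPM and the endothelial marker list summed to 429 to 1302 CPM. In Kupffer cells with no more than 1 molecule of that list, chosen after the data were seen, Cdh5 was at 282, 211 and 309 CPM in pIVCL 1, 2 and 3, against 372 and 365 CPM in sham 1 and 2. Of thinned Kupffer cells, 31.7% in pIVCL and 47.3% in sham carried Cdh5 (median depths 6394 to 9704 molecules). None of the 6 members tested passed in Kupffer cells by edgeR (1 at an unadjusted p under 0.05, 0 by DESeq2), where 0.123% of genes were called. That share is for edgeR, and those for the unadjusted and DESeq2 thresholds are not given.

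Stellate and B cells gave 1 call each, for Jam2. In stellate cells, with 0.752% of genes called (0.185% lower), it was at 7.54, 17.5 and 17.5 CPM in pIVCL 1, 2 and 3, against 66.6 and 128 CPM in sham 1 and 2, all pIVCL libraries being lower (log2 fold change -2.61 ± 0.45 SE, adjusted p = 0.0257). Within batch 2021.3 the log2 fold change was -3.48. The call was lost without pIVCL 2 (adjusted p = 0.107), pIVCL 3 (0.07), sham 1 (0.0807) or sham 2 (0.416). The endothelial marker list summed to 1249, 4765 and 5715 CPM in these pIVCL stellate cells, against 7430 and 11053 CPM in sham. In B cells, with 6.34% of genes called (3.65% lower), 0, 3 and 0 Jam2 molecules were counted in pIVCL 1, 2 and 3, against 28 and 26 in sham 1 and 2 (edgeR adjusted p = 0.0159), and the call was lost without pIVCL 1 (0.056), sham 1 (0.124) or sham 2 (0.116) and with batch as a term (0.245). The marker list there summed to 2689, 4305 and 301 CPM in pIVCL, against 13961 and 14036 CPM in sham, and its part in both Jam2 results was not tested. After limiting both classes to cells with at most 1 molecule of that list, Jam2 was too low to be tested. In dendritic cells, monocytes, NK and ILC1 cells and T cells, where 4, 4, 7 and 0 members were tested and 0.27, 0.397, 0 and 0.0832% of genes were called, no member passed by edgeR (1, 0, 1 and 0 at an unadjusted p under 0.05, 0 by DESeq2). The unadjusted and DESeq2 counts have no share of all genes beside them.

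Among connexins, Gja1 and Gja4 were also present in stellate cells, whose contractile processes wrap the sinusoids. Gja4 was at 123, 137 and 96.1 CPM in pIVCL 1, 2 and 3, against 192 and 152 CPM in sham 1 and 2 and Gja1 at 123, 74.4 and 68.4 CPM in pIVCL 1, 2 and 3, against 144 and 133 CPM in sham 1 and 2. Neither passed (log2 fold change -0.41 ± 0.25 SE, adjusted p = 0.552 for Gja4 and log2 fold change -0.51 ± 0.29 SE, adjusted p = 0.533 for Gja1). In stellate cells with at most 1 endothelial marker molecule Gja4 was at 105, 92.5 and 78.5 CPM in pIVCL 1, 2 and 3, against 136 and 119 CPM in sham 1 and 2. No member's change differed between endothelial and Kupffer cells or between endothelial and stellate cells at the threshold (0.831% and 0.667% of genes called by edgeR, 2 and 2 members at an unadjusted p under 0.05). The share of all genes at the unadjusted threshold is not given for these contrasts.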

How the data were processed

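Liver non-parenchymal cells were captured on the BD Rhapsody system, per the labels' protocols. The authors deposited tables of molecule counts for each cell and gene, from the BD WTA Rhapsody pipeline version 1.9.1 with reference GRCm39, per the file headers. Aligner, annotation and strand use: not given in the sources used here. No ambient correction was made here. The 10 genes, the gene lists and the tests were chosen with earlier results of these data known.

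Cells with under 500 molecules, under 200 genes or over 25% mitochondrial molecules were left out, then the 3% of highest scanpy 1.11.5 Scrublet score per library. Leiden clusters (2000 variable genes without junction genes, 30 components, 20 neighbours, resolution 1; endothelium at 0.8 on library-centred values) were named when at least 3 and 50% of a class's markers were in 25% of cells at 2-fold. Subtype markers needed 1.5-fold. A stromal cluster was split at resolution 0.3 after it was seen.

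Counts were summed per library and group of cells with at least 20 cells in each library and tested with edgeR 4.0.16 quasi-likelihood tests (robust, TMM, filterByExpr), Benjamini-Hochberg adjusted over all genes tested, at 0.05. Differences of changes used 1 model with library as a block. In all edgeR fits the spread of a gene was moderated over all genes tested. CPM is not TMM-scaled. DESeq2 1.42.0 was an alternative. Shares of all genes called refer to edgeR at the adjusted threshold. The tests were also run on simulated negative binomial counts with known changes. Those counts held no batch difference, so they cannot address the batch that is partly tied to the operation. Precision is limited by 3 and 2 libraries, and intervals are 95% from the SE.

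Genes were named by rule: the 10 members everywhere, up to 6 passing genes of each list in endothelium, up to 4 in other fits, and 3 most similar genes among those of at least 32 CPM. The zones and some other splits were added after the data were seen.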

Additional observations from a re-analysis of the deposited data

Results flagged for a closer look

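Several kinds of endothelium gave changes after pIVCL that differed from one another by a direct test of the difference (edgeR interaction, library as a block). The change in Gja4 was lower in central vein cells than in sinusoidal cells with a difference of log2 fold changes of -1.83 ± 0.26 SE (adjusted p = 1.11e-07), and lower in pericentral than in periportal cells, at -2.35 ± 0.17 SE (2.15e-15). The change in Cldn5 was also lower in pericentral than in periportal cells, at -0.80 ± 0.12 SE (7.11e-06). In portal and arterial cells the change exceeded that of sinusoidal cells by 1.24 ± 0.20 SE for Gja4 (4.5e-07), 1.03 ± 0.19 SE for Cldn5 (1.22e-05) and 0.67 ± 0.19 SE for Jam2 (0.0256). None of the portal and arterial differences passed without sham 1 or without sham 2. These contrasts share the sinusoidal sums, so they are not independent of each other. The pericentral minus periportal contrast was added after the data were seen. Each SE and p here rests on a spread moderated over all genes tested.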

How the results depend on the processing

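Over all endothelial cells 578 genes were called, and 1757 without the low-count filter, 1029 by the DESeq2 Wald test, 338 with batch as a term and 231 with the replicate block. Leaving out 1 library gave 54 (without sham 1) to 2543 (without pIVCL 1) genes. The 11 member calls over subclusters became 20 without the filter and 5 to 27 without 1 library. The 2 calls in other classes became 11 within batch 2021.3, 4 with batch as a term, 9 without the filter, 7 with the replicate block and 0 to 6 without 1 library. The 4 calls for large vessels against sinusoids became 1 to 4 without 1 library, and the 0 calls between classes became 1 without the filter. The shares of all genes called under these settings in subclusters, other classes and contrasts are not given here. Those member counts thus have no background beside them. The cause was not tested.

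Directions turned for members that had not passed. F11r in endothelium was 0.069 with batch as a term, 0.063 within batch 2021.3, 0.059 with the replicate block and -0.35 to 0.063 without 1 library. Cdh5 was 0.048 with batch as a term and 0.042 within batch 2021.3. Periportal Cldn5 was -0.023 without the filter, -0.17 at resolution 0.5 and -0.094 to 0.11 without 1 library. In portal and arterial cells Gja4 was -0.10 to 0.87 without 1 library, and Gja5 was -0.046 at resolution 0.5, -0.54 with batch as a term, -0.53 within batch 2021.3 and -0.54 to 0.45 without 1 library. Among calls, central vein Cldn5 turned to 0.28 at resolution 0.5, and Gja5 over endothelium to 0.20 when weighted to sham shares (without 1 library each, -0.41 for pIVCL 2, 0.45 for pIVCL 1, 0.41 for pIVCL 3, 0.31 for sham 1 and 0.11 for sham 2). The other values for single genes kept their direction: 369 also kept their side of the threshold, 69 lost it and 17 gained it, while 10 untested values moved by more than their spread.

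The replicate numbers did not pair the libraries: the deviations of same-numbered libraries correlated at -0.0861 (number 1) and -0.031 (number 2). With the replicate block, Cldn5 in endothelium was -0.60 (edgeR adjusted p = 0.164) and Gja5 -1.42 (adjusted p = 0.073). With 3 and 2 libraries no exact test over libraries can pass 0.05, batch 2021.7 holds only pIVCL, and portal and arterial values rest on as few as 16 cells.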
